A study of Mus musculus with 39 samples.

Results

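Serpins are a large family of proteins, most of which inhibit proteases, and their genes were followed here through the kidney, liver, lung and skin of young and old mice that lack perforin. The members are all genes whose symbol begins with Serpin, 1 of the clade letters a to i and a digit. That rule uses no measured value, but the members and the gene lists below were chosen with earlier results of these data known. The count table of kidney, liver and lung held 64 such genes among 24537, and the separate count table of skin held 68 among 52508. By position in the first of them, 25 members lie on mouse chromosome 12, 15 on chromosome 13 and 14 on chromosome 1.

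An inhibitory serpin offers a target protease a bait loop, and once the protease cuts the loop, the serpin changes shape and traps the protease in a covalent complex that cell-surface receptors clear. Clade A serpins are mostly secreted by the liver into blood, where they restrain proteases of leukocytes or carry hormones. Other secreted members restrain coagulation, complement and plasmin, and clade B members mostly stay inside cells, where they are known for protecting leukocytes and epithelia from their own granule and lysosomal proteases. A few members, such as the collagen chaperone Serpinh1, inhibit no protease.

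The messenger RNA of 39 libraries from 4 tissues was counted by a bulk form of MARS-seq, which reads the 3′ ends of transcripts. All mice were males with a knockout of Prf1 (Prf1-/-) on the C57BL/6 background, so every group, the young one included, lacked perforin, the pore-forming protein of cytotoxic lymphocytes. Young mice were 3 months old and untreated. Old mice were 20 months old and had received, from the age of 18 months, either ABT-737 at 25 mg/kg or its vehicle by intraperitoneal injection in monthly rounds. ABT-737 is a small molecule that blocks pro-survival members of the BCL-2 protein family. The treatment labels of drug-treated replicates 4 and 5 read ABT-738 and ABT-739, and the titles, which give ABT-737, were followed. Each group of each tissue had 3 libraries, except that the young group had 4 in kidney, liver and lung. Old mice carry the replicate numbers 3 to 5, young mice 1 to 4. No group of old untreated mice and no group with working perforin was analysed here. Age and the vehicle injections therefore cannot be told apart where old vehicle-treated mice are compared with young ones. Below, "with age" and like words stand for that comparison.

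Total counts per library were lowest in liver, at 223957 to 891116, against 1431814 to 3513311 (kidney), 1046508 to 2600092 (lung) and 1493411 to 3842808 (skin). Between 1 and 11 reads of Prf1 were counted in kidney libraries, 0 to 4 in liver, 1 to 68 in lung and 15 to 169 in skin, and whether these 3′ reads lie in the disrupted part of the gene was not tested. Each tissue expressed its own markers. The summed level of 11 hepatocyte transcripts was at least 104619 CPM (counts scaled to the library total) in every liver library. In kidney, 10 tubule transcripts summed to at least 15846 CPM, in lung 8 alveolar and club cell transcripts to at least 30409 CPM, and in skin 10 keratinocyte and hair follicle transcripts to at least 19401 CPM. Hemoglobin and platelet transcripts summed to 763 to 4216 CPM in young kidney and to 8430 to 8799 CPM in vehicle-treated kidney, and in lung they summed to 964 to 1855, 1824 to 12859 and 3707 to 35183 CPM in young, vehicle-treated and ABT-737-treated mice. ABT-737 replicate 4 of lung stood apart in adipocyte transcripts, 6 in the list, which summed to 4979 CPM there and to 70.7 to 215 CPM in the other lungs. Serpins took 3.08 to 7.83% of all counts in liver libraries, but 0.0732 to 0.135% in kidney, 0.154 to 0.28% in lung and 0.117 to 0.317% in skin.

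Many members were silent or barely counted. In kidney 36 of 64 members had any count and 18 passed the filter on low counts. The same numbers were 34 and 22 for liver, 44 and 18 for lung, and 55 (of 68) and 27 for skin. Members with no count at all numbered 28 (kidney), 30 (liver), 20 (lung) and 13 (skin). A total of 42 members were tested in at least 1 tissue and 6 in all 4. Below, levels in CPM are TMM-scaled, folds are edgeR log2 fold changes with their standard error (SE), and a member is called changed when its Benjamini-Hochberg adjusted p over all genes of the tissue is under 0.05. The tests behind them weigh a difference between groups against the spread between the libraries of a group.

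In young mice the liver was the main site of serpin expression among kidney, liver and lung. Across the 12 young libraries, scaled together, 31 members were tested. Between liver and kidney 27 members differed, 22 of them higher in liver, where 51.5% of all genes tested differed. Between liver and lung 28 differed, 20 of them higher in liver, beside 69.4% of all genes, and between kidney and lung 24 differed, 19 of them lower in kidney, beside 74.7% of all genes. Liver gave the highest mean for 20 members, each past both of its tests. They include the antiproteases Serpina1a to Serpina1e, antithrombin (Serpinc1), heparin cofactor II (Serpind1), the corticosteroid carrier Serpina6, the plasmin inhibitor Serpinf2 and the C1 inhibitor Serping1. Serpinc1 averaged 3029 ± 179 CPM in young liver against 1.39 ± 1.07 in kidney and 1.13 ± 0.772 in lung (SD, n = 4 each), and kidney and lung did not differ (edgeR adjusted p = 0.865).

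The lung led for another set of members. Serpina3g, Serpinb1a, Serpinb6a, Serpinb6b, Serpinb9, Serpine2 and Serpinh1 were among the members that had their highest young mean in lung and passed both tests there. Serpinb9, an intracellular inhibitor of granzyme B, averaged 40.8 CPM in lung, 5.91 in kidney and 2.79 in liver. Serpinh1 averaged 130 CPM in lung, 70.8 in kidney and 14.2 in liver. Serpina1f stood alone in kidney, at 57.8 ± 5.49 CPM (SD, n = 4), and had 0 counts in the young liver and lung libraries. The kidney also held Serpinf2, at 232 CPM in young mice against 669 in liver and 0.294 in lung. The remaining members did not separate fully by tissue. Serpina3f was higher in lung than liver without passing the test, and Serpinb8 differed between no pair of tissues. The order for Serpine2 was lung at 88 CPM, then liver at 25.6 and kidney at 22, and the last pair did not differ (edgeR adjusted p = 0.544). Skin was counted in a separate table, so its levels were not set against those of the other tissues.

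In kidney, old vehicle-treated mice had 6 serpins higher and 2 lower than young mice, of 18 tested, where 7.75% of all genes were higher and 5.50% lower. ABT-737 against vehicle gave 0 members higher and 1 lower, beside 0.135% and 1.21% of all genes. In liver the vehicle group had 3 members higher and 5 lower than the young, of 22, beside 11.7% and 10.8% of all genes, and ABT-737 against vehicle gave 1 higher and 1 lower, beside 1.0% and 2.85%. In lung 3 of 18 members were higher in vehicle-treated than in young mice, beside 8.15% of all genes, and 0 were lower, beside 4.73%. In skin 1 of 27 was higher, beside 5.84% of all genes, and 0 were lower, beside 5.35%. ABT-737 against vehicle gave 0 calls in lung and 0 in skin, as it did over all genes with edgeR, where 0% of 11949 and 0% of 14224 genes were called without a replicate block. With the block, edgeR called 99 lung genes, which is 0.829% of those tested, and 1 of them was a serpin, Serpina3g. In those tissues 3 and 2 members, and 1919 and 1134 genes in all, had an unadjusted p under 0.05. DESeq2 called 328 genes in lung, 1 of them a serpin, and 58 genes in skin, 0 of them serpins. The comparisons of ABT-737 with vehicle and of vehicle with young share the vehicle libraries.

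Between vehicle and young the tested members had a median log2 fold change of 0.34 (kidney), -0.20 (liver), 0.00 (lung) and 0.18 (skin), beside medians over all genes of 0.01, 0.02, 0.04 and 0.05. Between ABT-737 and vehicle it was, in the same order, -0.51, 0.15, -0.03 and -0.41, beside 0.01, -0.03, 0.04 and 0.04. In kidney 17 of the 18 fitted values were negative under ABT-737, of which 1 was called. These signs are not independent, since all rest on the same vehicle libraries and some members share sequence. The share of negative values over all kidney genes is not given here. The heat map of fold changes shows 41 of the 42 tested members in all 8 comparisons.

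**Figure D1:**
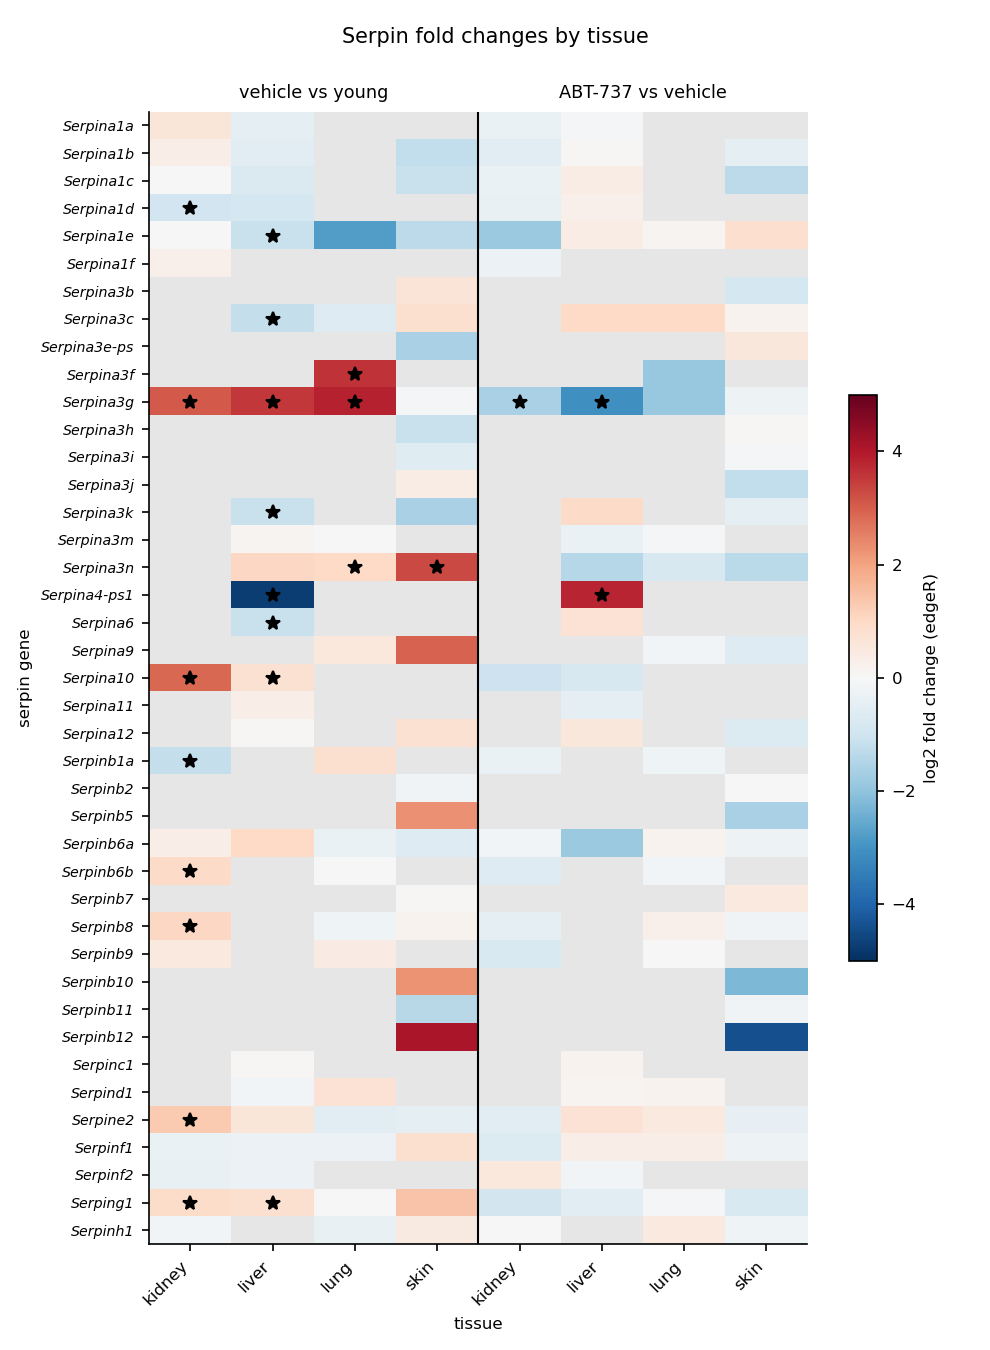
Log2 fold changes from edgeR of 41 serpins tested in at least 1 tissue (rows) in 8 comparisons (columns), 4 of vehicle with young and 4 of ABT-737 with vehicle. Color gives the log2 fold change, a star marks an adjusted p under 0.05 over all genes of the tissue, and grey marks members not tested. Stars fall on 15 members, and the row of Serpina3g holds 5 of the 23.

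Serpina3g, a member of the expanded mouse Serpina3 group that is expressed in leukocytes and inhibits cathepsins, was the serpin with calls in the most comparisons. It was higher in vehicle-treated than in young mice in kidney, liver and lung, and lower after ABT-737 in kidney and liver. Its neighbor Serpina3f and the acute-phase member Serpina3n are described beside it. The first table gives Serpina3f at chr12:104214544-104221129 and Serpina3g at chr12:104214544-104241934, both on the forward strand of mm10. These spans overlap, so reads of the pair could be split between them. Of all 50-base windows in the last 300 bases of the Serpina3g transcript, 4.38% occur in another member. The spans cover exons and introns alike.

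The start regions of these 3 members are shown because they are the Serpina3 genes that were higher in old vehicle-treated mice in at least 1 tissue. Each window is 300 bases of RefSeq sequence on the forward strand of GRCm38.p6, from 250 bases before the annotated start to 50 bases after it. Capitals mark TTCNNNGAA, the spaced inverted repeat that STAT factors bind, which reads the same on both strands.
Serpina3g, chr12:104235897-104236196: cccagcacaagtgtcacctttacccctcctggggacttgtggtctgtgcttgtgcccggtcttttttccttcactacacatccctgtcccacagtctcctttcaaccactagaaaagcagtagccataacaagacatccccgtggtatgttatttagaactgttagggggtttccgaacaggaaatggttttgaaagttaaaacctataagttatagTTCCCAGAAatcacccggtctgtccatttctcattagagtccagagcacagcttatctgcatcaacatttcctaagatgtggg
Serpina3f, chr12:104214294-104214593: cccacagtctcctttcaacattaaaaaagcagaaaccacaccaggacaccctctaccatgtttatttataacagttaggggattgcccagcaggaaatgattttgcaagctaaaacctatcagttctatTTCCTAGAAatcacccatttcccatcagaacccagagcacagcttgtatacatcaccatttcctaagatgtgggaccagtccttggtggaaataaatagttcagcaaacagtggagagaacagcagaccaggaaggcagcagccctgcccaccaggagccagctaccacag
Serpina3n, chr12:104406458-104406757: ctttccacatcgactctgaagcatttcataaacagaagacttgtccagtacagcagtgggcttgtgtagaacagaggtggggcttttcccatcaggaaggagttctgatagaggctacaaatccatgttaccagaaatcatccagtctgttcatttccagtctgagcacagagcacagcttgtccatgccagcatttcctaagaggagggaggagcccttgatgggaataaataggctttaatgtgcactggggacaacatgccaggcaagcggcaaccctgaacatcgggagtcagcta
The repeat begins 33 bases before the Serpina3g start and 121 bases before the Serpina3f start shown, which is the first of 2 annotated for that gene. The Serpina3n window does not hold these letters. The RefSeq start of Serpina3g lies inside the span that the first table gives, which opens at the Serpina3f start. Of 54 members matched in the table of promoters, 8 hold the repeat. Counted by window, 11 of 63 member windows (17.5%) hold it, beside 8.3% of all 32851 windows. The 8 are Serpina11, Serpina1f, Serpina3f, Serpina3g, Serpina3i, Serpinb2, Serpinb6a and Serpinb9c.

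In kidney, Serpina3g measured 4.72, 4.41, 4.68 and 9.23 CPM in young replicates 1 to 4. It measured 34.2, 76.6 and 35.2 CPM in vehicle replicates 3 to 5 and 14.4, 14.4 and 17.7 CPM in ABT-737 replicates 3 to 5. The 3 groups did not overlap, and the drug-treated mice stood between the other groups. Vehicle exceeded young 8.48-fold (log2 fold change 3.08, SE 0.32, edgeR adjusted p = 1.12e-05). ABT-737 was 3.06-fold lower than vehicle (log2 fold change -1.61, SE 0.32, edgeR adjusted p = 0.0153), but without ABT-737 replicate 3 or 4 that adjusted p was 0.0626 or 0.073. In bulk tissue, fewer cells that express a gene and less RNA per cell cannot be told apart.

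In liver, Serpina3g measured 9.68, 11.9, 9.22 and 15.3 CPM in young mice, 192, 153 and 79.6 CPM in vehicle-treated mice and 19.8, 11.4 and 19.8 CPM after ABT-737. Every vehicle library lay above all others, and the young and drug-treated ranges overlapped. The vehicle mean of 142 ± 57.1 CPM (SD, n = 3) was 11.7-fold above the young mean of 11.5 ± 2.8 (SD, n = 4) by the fitted log2 fold change of 3.54 (SE 0.34, edgeR adjusted p = 7.13e-06). ABT-737 was 8.27-fold lower than vehicle (log2 fold change -3.05, SE 0.39, edgeR adjusted p = 3.48e-04), and both calls held without any single library. The liver counts behind these levels were 5 to 8 reads per young library, 44 to 131 per vehicle library and 5 to 8 per drug-treated library.

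In lung, Serpina3g measured 39.7, 61.9, 18.5 and 30.2 CPM in young mice, 328, 470 and 816 CPM in vehicle-treated mice and 42.5, 95.9 and 298 CPM after ABT-737. Vehicle lay above both other groups without overlap, while 1 drug-treated library was close to the vehicle range. Vehicle exceeded young 14.4-fold (log2 fold change 3.85, SE 0.58, edgeR adjusted p = 0.00264). The difference between ABT-737 and vehicle was -1.88 (log2, SE 0.59, edgeR adjusted p = 0.159). With the replicate number as a block it was -2.21 (SE 0.34, edgeR adjusted p = 0.0272), and without ABT-737 replicate 5 it was -2.99 (edgeR adjusted p = 0.0322). Without ABT-737 replicate 4, the lung library rich in adipocyte transcripts, it was -1.67 (edgeR adjusted p = 0.173), and without replicate 3, the one richest in hemoglobin, -1.44 (edgeR adjusted p = 0.513). In skin, Serpina3g measured 30.4, 36.8 and 32.7 CPM in young mice, 21.5, 47.3 and 27 CPM in vehicle-treated mice and 36.8, 15.3 and 28 CPM after ABT-737. The skin groups overlapped, and the fitted difference between vehicle and young was -0.06 (SE 0.36, edgeR adjusted p = 0.924).

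**Figure D2:**
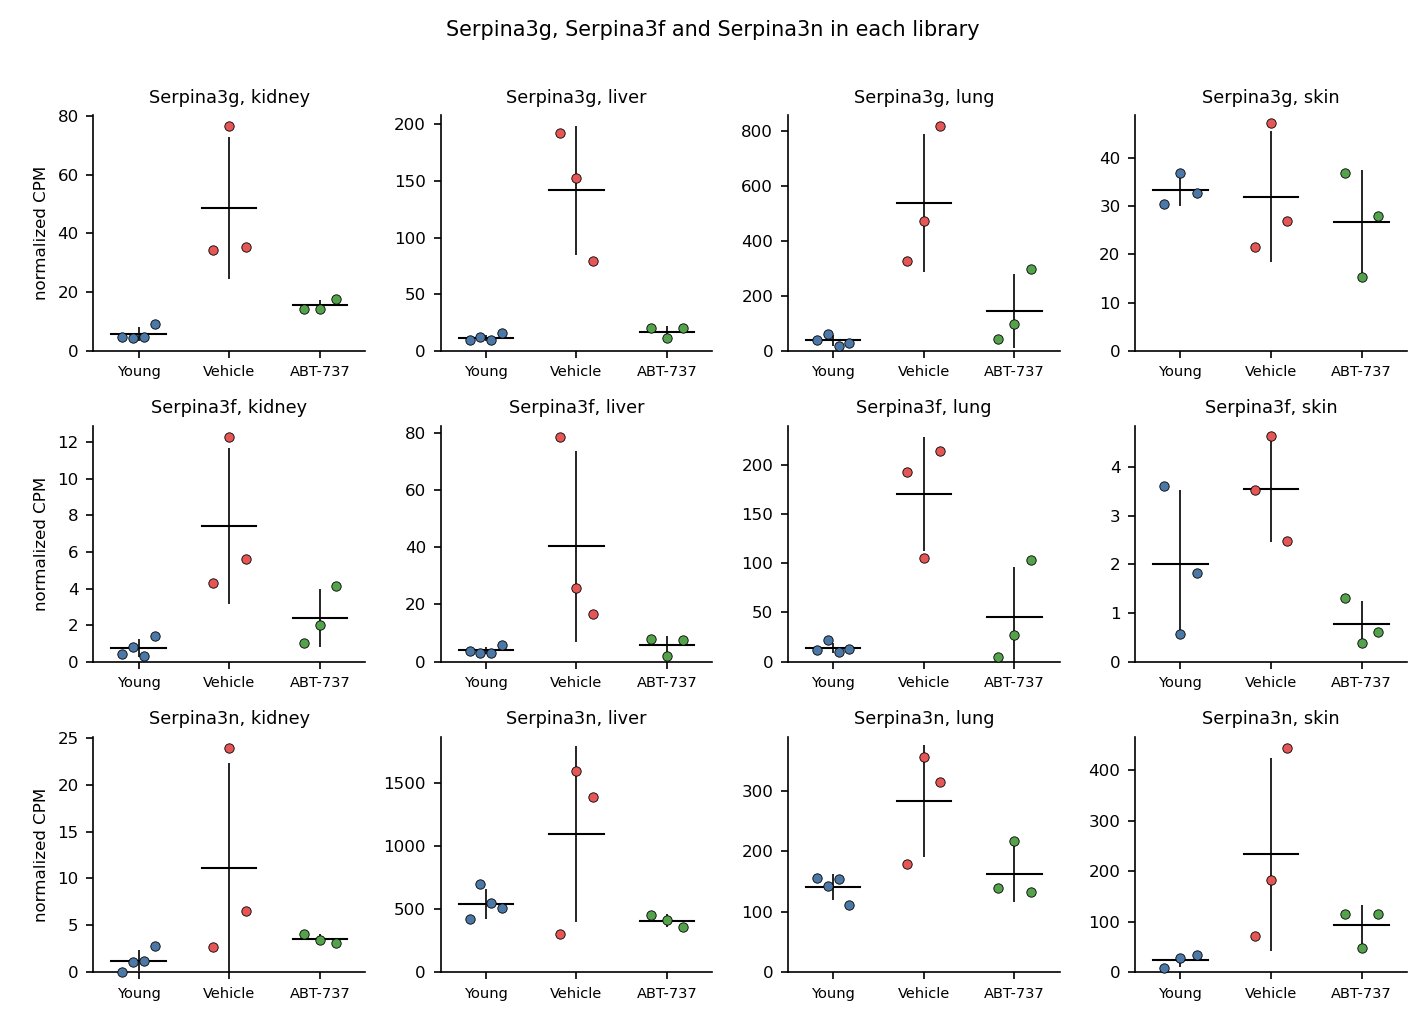
Levels of Serpina3g, Serpina3f and Serpina3n (rows) in kidney, liver, lung and skin (columns), in normalized CPM on linear axes that start at 0 and differ between panels. Points are libraries of young, vehicle-treated and ABT-737-treated mice, the horizontal bar is the group mean and the vertical line 1 SD to each side, cut at 0. Vehicle libraries of Serpina3g lie above the other groups in kidney, liver and lung, at 34.2 CPM or more, and among them in skin.

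Serpina3f followed in lung, where it measured 11.8, 21.6, 9.77 and 12.5 CPM in young mice, 193, 105 and 214 CPM in vehicle-treated mice and 4.51, 27.4 and 103 CPM after ABT-737. The vehicle libraries stood above both other groups, ABT-737 replicate 5 just below the lowest of them. Vehicle exceeded young 12.4-fold (log2 fold change 3.63, SE 0.65, edgeR adjusted p = 0.00426). The drug difference was -1.88 (log2, SE 0.66, edgeR adjusted p = 0.193), and without ABT-737 replicate 5 it was -3.54 (edgeR adjusted p = 0.0322). Serpina3f was too low for the filter in kidney and liver. It measured 0.293 to 1.38 CPM in young kidney, 4.32, 12.3 and 5.63 CPM with vehicle and 1.03, 1.98 and 4.15 CPM with ABT-737. In liver it measured 2.98 to 5.75 CPM in young mice, 78.6, 25.8 and 16.7 CPM with vehicle and 7.93, 1.9 and 7.43 CPM with ABT-737. The vehicle libraries were again the highest in both tissues.

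Serpina3n, the mouse gene closest to human alpha-1-antichymotrypsin and known to be induced in acute-phase responses, spread widely among vehicle-treated mice. In liver it measured 420, 705, 548 and 508 CPM in young mice, 301, 1598 and 1394 CPM with vehicle and 456, 419 and 359 CPM with ABT-737. Vehicle replicate 3 was the lowest library of all, and the other vehicle libraries were the highest. Neither difference was called (log2 fold change of vehicle against young 1.02, SE 0.38, edgeR adjusted p = 0.0641, and of ABT-737 against vehicle -1.43, SE 0.42, edgeR adjusted p = 0.0737). Without vehicle replicate 3, which had the fewest counts of all liver libraries, they were 1.45 and -1.86 (edgeR adjusted p = 6.15e-05 and 4.04e-05).

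In skin, Serpina3n was the 1 serpin called. It measured 7.96, 28.8 and 34.1 CPM in young mice, 72.5, 184 and 445 CPM with vehicle and 116, 47.4 and 116 CPM with ABT-737. All vehicle libraries exceeded all young ones, and the drug-treated libraries overlapped the lower end of the vehicle range. Vehicle exceeded young 9.75-fold (log2 fold change 3.29, SE 0.73, edgeR adjusted p = 0.0261), a call lost without vehicle replicate 5 (log2 fold change 2.42, adjusted p = 0.0728) or young replicate 1, 2 or 3 (0.0947, 0.0886 and 0.0574). In lung it measured 156, 143, 154 and 111 CPM in young mice, 179, 356 and 315 CPM with vehicle and 140, 217 and 132 CPM with ABT-737, and it was higher with vehicle than in young mice (log2 fold change 1.01, SE 0.29, edgeR adjusted p = 0.0336). That call was lost with the replicate block (0.212) and without any of 6 libraries, vehicle replicates 4 and 5 and all 4 young replicates (0.0709 to 0.129). In kidney Serpina3n did not pass the filter and measured 0, 1.1, 1.17 and 2.77 CPM in young mice, 2.75, 23.9 and 6.57 CPM with vehicle and 4.11, 3.46 and 3.12 CPM with ABT-737.

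Serpina3k and Serpina3c were lower with age in liver. Serpina3k, or contrapsin, which the liver secretes into plasma, measured 11186, 10864, 10653 and 11709 CPM in young liver, 2444, 4493 and 8225 CPM with vehicle and 7331, 12164 and 9615 CPM with ABT-737. Every vehicle library was below every young one, and the drug-treated libraries reached from the vehicle range to above the young range. Serpina3k fell with age (log2 fold change -1.13, SE 0.34, edgeR adjusted p = 0.0268), a call lost without vehicle replicate 4 (0.0658) or young replicate 3 (0.0551). Its difference under ABT-737 was 0.94 (SE 0.36, edgeR adjusted p = 0.183). Serpina3c measured 381, 340, 358 and 380 CPM in young liver, 82.9, 149 and 234 CPM with vehicle and 174, 451 and 327 CPM with ABT-737. It fell with age too (log2 fold change -1.18, SE 0.32, edgeR adjusted p = 0.0151, but 0.0546 without vehicle replicate 4). Without vehicle replicate 5, Serpina3k and Serpina3c were called higher after ABT-737, at 1.50 and 1.42 (edgeR adjusted p = 0.0166 and 0.0305). When the counts of all Serpina3 genes were summed per library, the age difference was 3.03 in kidney, -0.86 in liver and 2.22 in lung (log2). The liver value was not called (edgeR adjusted p = 0.0708). The age difference of the sum differed between the 3 tissues (edgeR adjusted p = 1.55e-04). These sums rest on different genes, as Serpina3k averaged 15345 CPM in young liver, 0.23 in young kidney and 4.91 in young lung. For Serpina3g alone the same test gave an edgeR adjusted p of 0.684. In skin Serpina3h, not tested in the other tissues, measured 258, 319 and 257 CPM in young mice, 103, 243 and 42.2 CPM with vehicle and 230, 70.9 and 102 CPM with ABT-737, and its age difference was not called (edgeR adjusted p = 0.232).

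Transcripts of lymphocytes and of the interferon response were higher with age in the tissues where Serpina3g was, and also in skin, where it was not. The counts of calls here and in the next paragraph stand beside shares of all genes. Higher with age were 7.75% (kidney), 11.7% (liver), 8.15% (lung) and 5.84% (skin) of all genes. Lower after ABT-737 were 1.21% (kidney), 2.85% (liver) and 0% (lung and skin). The summed level of 11 T and NK cell markers was 15.2 to 21.7 CPM in young kidney, 101 to 155 with vehicle and 23.3 to 51.4 with ABT-737. Of those markers 7 were tested in kidney, and all 7 were higher with vehicle than in young mice and 4 lower with ABT-737. In liver 1 was tested and called both ways, and in lung all 9 tested were higher with age and 0 were called with ABT-737. The same sum was 4.47 to 12.3, 87.3 to 158 and 11.4 to 24.8 CPM in liver, where Klrd1 was at 0 throughout, and 130 to 178, 865 to 3139 and 218 to 680 CPM in lung. In skin, where Serpina3g was not called, it was 7.24 to 14.4, 42.2 to 108 and 15.7 to 36 CPM, and 4 of 5 tested markers were higher with age. Macrophage markers, 8 in the list, summed to 84.9 to 117 CPM in young kidney, 162 to 239 with vehicle and 88.4 to 126 with ABT-737, and in liver to 196 to 265, 720 to 957 and 169 to 255 CPM. In lung they summed to 696 to 962, 973 to 2065 and 962 to 1461 CPM, and in skin, where all 6 tested were higher with age, to 105 to 337, 740 to 1818 and 265 to 596 CPM. The part of these cells in the Serpina3g result was not tested.

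Of 26 listed interferon-gamma response genes, all 26 were higher in vehicle-treated than in young kidney (median log2 fold change 2.21), and 22 were lower after ABT-737 (median -1.86). In liver 17 of 21 tested were higher with age (median 2.16) and 16 lower after ABT-737 (median -1.92). In lung 20 of 26 and in skin 15 of 24 were higher with age (medians 2.04 and 1.92), and 0 were called after ABT-737 (medians -1.09 and -1.11). Acute-phase genes, the liver proteins secreted in inflammation, were higher with age for 15 of 22 tested in liver (median 1.41) and lower after ABT-737 for 10 (median -1.05). In kidney 8 of 11 were higher with age and 1 lower after ABT-737, in lung 2 of 14 were higher and 1 lower with age, and in skin 4 of 13 were higher with age.

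The Serpina1 genes encode mouse alpha-1-antitrypsin, the main plasma inhibitor of neutrophil elastase. Serpina1a to Serpina1e share stretches of sequence, whereas Serpina1f shares none with them by the measure used here: 44.6% of 50-base windows in the last 300 bases of Serpina1d, 37.8% of those of Serpina1b and 13.5% of those of Serpina1e occur in another member, so the counts of single genes are uncertain. In kidney Serpina1d measured 329, 382, 257 and 384 CPM in young mice, 150, 156 and 213 CPM with vehicle and 162, 108 and 131 CPM with ABT-737. Each old library was below each young one. Serpina1d was lower with vehicle than in young mice (log2 fold change -0.96, SE 0.19, edgeR adjusted p = 0.00258), without any single library too. With the replicate block the call was lost (edgeR adjusted p = 0.0776). Serpina1a in kidney measured 91.8, 75.8, 100 and 100 CPM in young mice, 118, 118 and 181 CPM with vehicle and 148, 78.2 and 108 CPM with ABT-737, so that its vehicle libraries lay above the young ones without a call (log2 fold change 0.60, SE 0.21, edgeR adjusted p = 0.0641). Serpina1f measured 58.2 to 71.7 CPM in young kidney, 73.2 to 79.3 CPM with vehicle and 56 to 76.2 CPM with ABT-737 and was not called. Serpina1e in kidney measured 5.56 to 12 CPM in young mice, 4.71, 17.8 and 7.98 CPM with vehicle and 4.11, 1.98 and 1.56 CPM with ABT-737. Its drug difference of -1.87 (log2, SE 0.55) was not called (edgeR adjusted p = 0.115). With a filter of only 1 count or without vehicle replicate 3 it was called (edgeR adjusted p = 0.0276 and 0.0266). Serpina1b and Serpina1c were not called in kidney.

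The make-up of the Serpina1 counts in kidney stood apart between young and old libraries, though the shares were not tested. Serpina1d made up 56.4 to 66.3% of all Serpina1a to Serpina1f counts in young kidney, 37.7 to 40.6% with vehicle and 37.7 to 40.8% with ABT-737. Serpina1a made up 13.1 to 22.1% in young kidney, 28.6 to 34.4% with vehicle and 27.3 to 37.3% with ABT-737. Summed over Serpina1a to Serpina1f, the kidney difference between vehicle and young was -0.30 (log2, SE 0.16, edgeR adjusted p = 0.232). The hepatocyte markers in these kidney libraries summed to 337 to 575 CPM in young mice, 193 to 243 with vehicle and 169 to 472 with ABT-737, and their part in the Serpina1d result was not tested. In young liver Serpina1d made up 10.4 to 12.6% of Serpina1 counts and Serpina1e 42.9 to 46.6%.

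**Figure D3:**
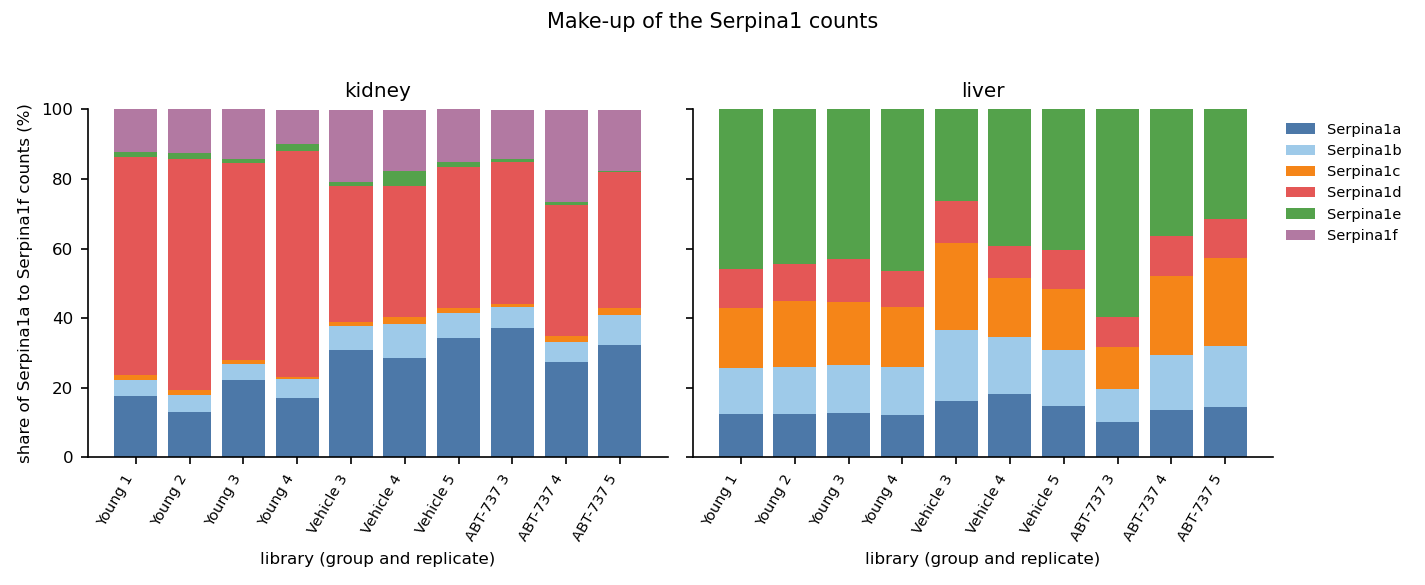
Share of each Serpina1 gene in all Serpina1a to Serpina1f counts of a library, as stacked bars in percent, for the kidney (left) and liver (right) libraries of young, vehicle-treated and ABT-737-treated mice. In kidney the Serpina1d part covers at least 56.4% of each young bar and at most 40.8% of each old bar.

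In liver Serpina1e measured 28724, 25594, 21747 and 27674 CPM in young mice, 5525, 12117 and 18320 CPM with vehicle and 17191, 17200 and 12522 CPM with ABT-737. All old libraries were below all young ones. Serpina1e was lower with vehicle than in young mice (log2 fold change -1.11, SE 0.34, edgeR adjusted p = 0.0292), a call lost without vehicle replicate 4 (0.0529), young replicate 1 (0.0523) or young replicate 4 (0.052). The other liver Serpina1 genes were not called. Serpina1a measured 6499 to 7706 CPM in young liver, 3417 to 6729 CPM with vehicle and 2901 to 6402 CPM with ABT-737, and Serpina1c measured 9064 to 10929, 5248 to 8023 and 3495 to 10757 CPM. Serpina1d measured 6187 to 6852 CPM in young and 2549 to 5094 in vehicle-treated liver (log2 fold change -0.87, SE 0.31, edgeR adjusted p = 0.0536), and without vehicle replicate 5 its difference was -1.25 (edgeR adjusted p = 0.0098). Vehicle replicate 3, the shallowest library, held the lowest value of Serpina1a, Serpina1d, Serpina1e, Serpina3k and Serpina3c in the vehicle group. It also stood apart in albumin transcript, at 8907 CPM against 30297 to 41155 CPM in the other liver libraries. Its Apoa1, at 16985 CPM, was by contrast the highest of all livers. The part of this library's make-up in the liver calls was not tested.

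Serpina1e was also counted in lung and skin. In lung it measured 59.3, 12.5, 1.09 and 31.2 CPM in young mice and at most 13.7 CPM in any old library, without a call (edgeR adjusted p = 0.108). Young lung replicate 1, the highest, also held Apoa1 at 144 CPM, and hepatocyte markers summed to 21.2 to 568 CPM over the young lungs. In skin the highest Serpina1e value was 60.8 CPM in young replicate 1, which held albumin transcript (Alb) at 170 CPM. In ABT-737 replicates 4 and 5 of skin, by contrast, Serpina1e measured 19.6 and 22.9 CPM beside Alb at 2.35 and 1.22 CPM, and it made up 94.3% and 92.6% of all Serpina1 counts, against at most 59.7% in any liver library. The part of liver RNA in the values of the young libraries was not tested.

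Serpina6, the corticosteroid-binding carrier that releases its hormone when elastase cuts it, measured 318, 347, 390 and 353 CPM in young liver, 127, 156 and 200 CPM with vehicle and 293, 207 and 319 CPM with ABT-737. The vehicle libraries were below both other groups. Serpina6 fell with age (log2 fold change -1.10, SE 0.23, edgeR adjusted p = 0.003), and its difference under ABT-737 was 0.73 (SE 0.25, edgeR adjusted p = 0.123). The other listed hormone carrier, the thyroxine-binding Serpina7, did not pass the filter in any tissue. Serpina4-ps1, a pseudogene of the cluster at chr12:104077959-104086920 on the forward strand of mm10, had the largest difference of all called serpins. It measured 575, 851, 564 and 1011 CPM in young liver, 100, 3.51 and 16.7 CPM with vehicle and 531, 377 and 267 CPM with ABT-737. The vehicle libraries, with 23, 3 and 13 counts, lay far below both other groups. Vehicle was 26.7-fold lower than young (log2 fold change -4.74, SE 0.66, edgeR adjusted p = 1.53e-04), and ABT-737 exceeded vehicle 13.9-fold (log2 fold change 3.80, SE 0.67, edgeR adjusted p = 0.00431). Without vehicle replicate 3 these differences were -6.21 and 5.27, and without vehicle replicate 4 they were -3.99 and 3.06 (log2), with each call kept. Serpina9, a member known from germinal center B cells, was counted in liver with 5 or 6 reads in each young library and 0 in each vehicle library and was below the liver filter.

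**Figure D4:**
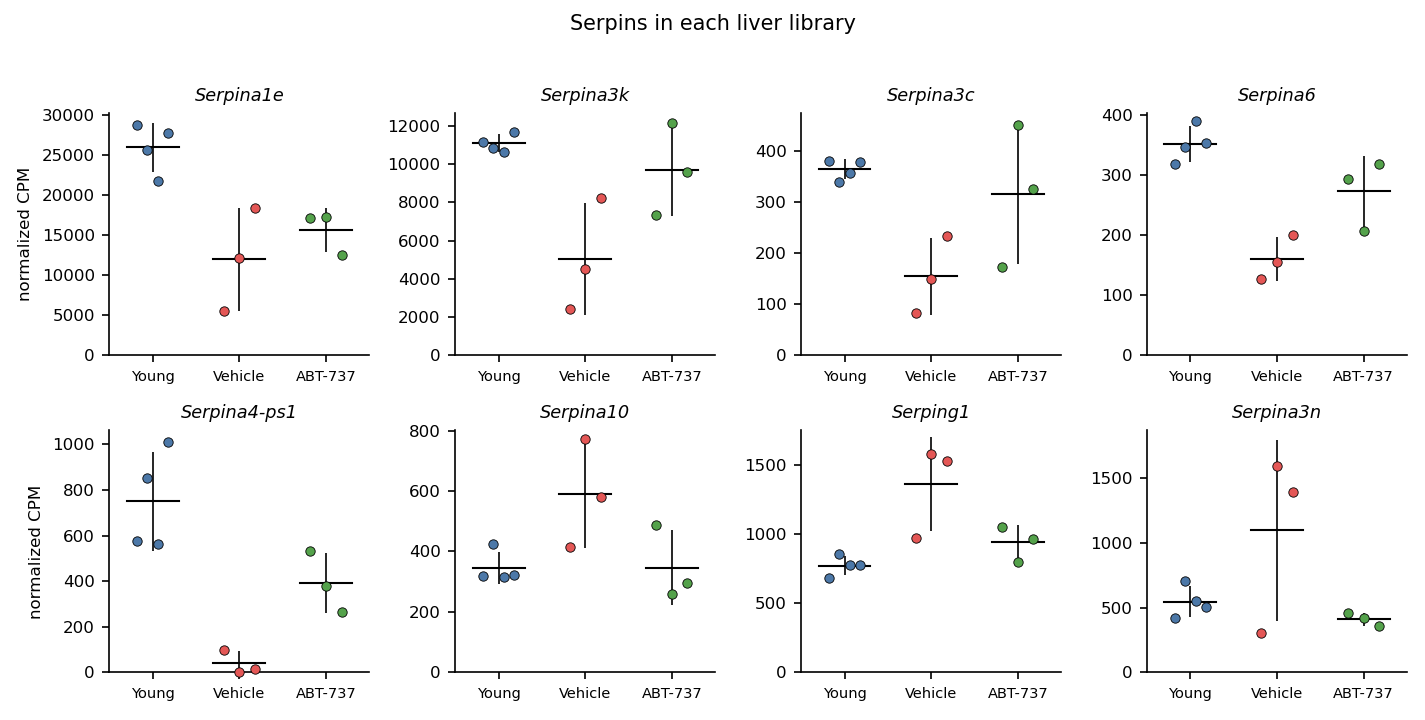
Levels of 8 serpins in liver, in normalized CPM on linear axes that start at 0 and differ between panels. Points are libraries of young, vehicle-treated and ABT-737-treated mice, horizontal bars are means and vertical lines 1 SD to each side, cut at 0. Vehicle libraries lie below the young ones for Serpina1e, Serpina3k, Serpina3c, Serpina6 and Serpina4-ps1 and above them for Serping1.

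Among the serpins of coagulation and complement, Serpina10, which inhibits factor Xa with its cofactor protein Z, was higher with age in kidney and in liver. In kidney it measured 0.429, 1.38, 1.76 and 1.85 CPM in young mice, 10.2, 10.3 and 11.3 CPM with vehicle and 3.6, 4.95 and 6.75 CPM with ABT-737. The 3 groups did not overlap. The age difference was 7.42-fold (log2 fold change 2.89, SE 0.36, edgeR adjusted p = 6.97e-05), from 1 to 6 counts per young and 15 to 26 per vehicle library, and the drug difference was -1.05 (SE 0.34, edgeR adjusted p = 0.149). In liver it measured 318, 425, 316 and 322 CPM in young mice, 415, 773 and 581 CPM with vehicle and 487, 258 and 295 CPM with ABT-737. These groups overlapped, and the call (log2 fold change 0.78, SE 0.26, edgeR adjusted p = 0.0431) was lost without ABT-737 replicate 5, vehicle replicate 4 or 5, or young replicate 1, 3 or 4 (0.0549 to 0.179), and with DESeq2 or its size factors (0.0733 and 0.0516). It was also lost with the replicate block (edgeR adjusted p = 0.19) and with a filter of only 1 count. Lung libraries held 1 to 3 counts of Serpina10 when young, 5 to 33 after vehicle and 2 to 4 after ABT-737, and it was not tested there.

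Serping1, the inhibitor of the C1 complement proteases and of kallikrein, was higher with age in kidney and liver. In kidney it measured 101, 98.9, 112 and 115 CPM in young mice, 118, 282 and 208 CPM with vehicle and 128, 65.8 and 125 CPM with ABT-737. Vehicle replicate 3 stood just above the young range and the other vehicle libraries well above it. The call (log2 fold change 0.92, SE 0.25, edgeR adjusted p = 0.0217) was lost without vehicle replicate 4 or 5 or young replicate 1, 2 or 3 (0.0517 to 0.155). The drug difference was -0.92 (SE 0.27, edgeR adjusted p = 0.113), and without vehicle replicate 3 it was -1.20 (edgeR adjusted p = 0.00924). In liver it measured 682, 857, 776 and 779 CPM in young mice, 969, 1580 and 1532 CPM with vehicle and 1054, 802 and 968 CPM with ABT-737. The age difference there was 0.82 (log2, SE 0.23, edgeR adjusted p = 0.0182), lost without vehicle replicate 4 or 5 or young replicate 1, 3 or 4 (0.0508 to 0.0613). In lung it measured 604 to 874 CPM in young mice and 645 to 765 CPM with vehicle, with a fitted difference of 0.01. In skin it measured 70.9, 125 and 305 CPM in young mice and 304, 638 and 416 CPM with vehicle, without a call (log2 fold change 1.43, SE 0.57, edgeR adjusted p = 0.122).

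Antithrombin (Serpinc1), the main plasma inhibitor of thrombin, was called in no comparison within a tissue. It measured 2186, 2130, 2347 and 2099 CPM in young liver, 1916, 2360 and 2637 CPM with vehicle and 2592, 2547 and 2622 CPM with ABT-737. The groups of young and vehicle-treated mice overlapped, and the fitted difference was 0.07 (log2, SE 0.22, edgeR adjusted p = 0.841). Heparin cofactor II (Serpind1) measured 560 to 683 CPM in young liver, 493 to 723 CPM with vehicle and 624 to 635 CPM with ABT-737.

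Serpine2, or protease nexin-1, an inhibitor of thrombin, urokinase and plasmin on cell surfaces and matrix, was higher with age in kidney. It measured 22.7, 22.3, 23.7 and 30 CPM in young kidney, 46.7, 77.3 and 59.6 CPM with vehicle and 42.6, 41.6 and 39.5 CPM with ABT-737. The groups did not overlap, the drug-treated libraries lying just below the vehicle range. Vehicle exceeded young 2.46-fold (log2 fold change 1.30, SE 0.18, edgeR adjusted p = 1.88e-04), and the drug difference was -0.55 (SE 0.19, edgeR adjusted p = 0.187). In lung Serpine2 measured 71.6 to 137 CPM in young mice, 64.7 to 85.2 CPM with vehicle and 94.8 to 112 CPM with ABT-737, and neither difference was called (edgeR adjusted p = 0.157 and 0.395). The age differences of kidney, liver and lung differed from each other (edgeR adjusted p = 0.00564).

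Serpinf2, the main plasmin inhibitor, measured 262, 236, 250 and 294 CPM in young kidney, 226, 197 and 172 CPM with vehicle and 298, 220 and 348 CPM with ABT-737. Its vehicle libraries lay below the young ones, and neither difference was called (edgeR adjusted p = 0.126 and 0.146). In liver it measured 449 to 535, 262 to 501 and 286 to 476 CPM in the same order. Serpinb2, the plasminogen activator inhibitor-2, measured 107, 132 and 103 CPM in young skin, 47, 107 and 146 CPM with vehicle and 148, 59.1 and 89.3 CPM with ABT-737.

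Serpinh1 and Serpinf1, which inhibit no protease, were not called. Serpinh1, the endoplasmic reticulum chaperone of collagen, measured 122, 163, 152 and 215 CPM in young lung, 213, 99.9 and 69.9 CPM with vehicle and 194, 196 and 136 CPM with ABT-737, with overlap between all groups. In kidney its fitted differences were -0.12 with age and -0.01 under ABT-737, and in skin it measured 73.1 to 150 CPM in young and 106 to 179 CPM in vehicle-treated mice. Serpinf1, or pigment epithelium-derived factor, measured 850 to 1090 CPM in young liver, 578 to 986 CPM with vehicle and 896 to 1186 CPM with ABT-737. In skin it measured 62.9, 99.5 and 171 CPM in young mice and 181, 190 and 212 CPM with vehicle, apart but not called (edgeR adjusted p = 0.226). In kidney it stayed at or below 7.39 CPM and in lung it reached 17.4 to 66.4 CPM.

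Of the intracellular clade B members, 2 were higher and 1 lower with age among 5 tested in kidney, beside the 7.75% and 5.50% of all genes given above. None was called among 1 tested in liver, 5 in lung and 4 in skin, and a difference between tissues is tested below for single members only. Serpinb1a, an inhibitor of neutrophil elastase, proteinase 3 and cathepsin G, measured 8.15, 11.9, 13.8 and 15.7 CPM in young kidney, 5.5, 6.16 and 4.7 CPM with vehicle and 5.14, 4.95 and 2.6 CPM with ABT-737. All old libraries lay below all young ones. It was lower with vehicle than in young mice (log2 fold change -1.19, SE 0.31, edgeR adjusted p = 0.0173), lost without vehicle replicate 5 (0.0822) or young replicate 4 (0.0505). In lung it measured 19 to 30.6 CPM in young mice and 36.9 to 60.9 CPM with vehicle, a difference of 0.79 (log2, SE 0.29) that was not called (edgeR adjusted p = 0.0823). The age differences of kidney and lung had opposite signs, and the test of the difference between the 3 tissues gave an edgeR adjusted p of 0.00625, with lung 1.98 above kidney (log2).

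Serpinb6b measured 11.6, 10.2, 13.2 and 12.5 CPM in young kidney, 17.3, 34.2 and 20.2 CPM with vehicle and 14.9, 15.3 and 14 CPM with ABT-737. The vehicle libraries were above both other groups, and the age difference was 0.97 (log2, SE 0.24, edgeR adjusted p = 0.0127), or 0.66 without vehicle replicate 4 (0.0833). Its lung level of 125 to 158 CPM showed no such split. Serpinb8, an inhibitor of furin-like proteases, measured 3, 8.54, 6.15 and 5.08 CPM in young kidney, 7.85, 15 and 14.6 CPM with vehicle and 7.71, 10.4 and 8.31 CPM with ABT-737. Its groups overlapped, and its call (log2 fold change 1.04, SE 0.33, edgeR adjusted p = 0.0488) was lost without any of 7 of the 10 kidney libraries (0.0515 to 0.193, among them vehicle replicates 4 and 5, young replicates 1, 3 and 4 and ABT-737 replicates 3 and 5) and with DESeq2 (0.0669). Serpinb9 measured 4.69 to 7.61 CPM in young kidney, 8.45 to 9.82 with vehicle and 4.45 to 6.75 with ABT-737, with vehicle above both groups and no call (edgeR adjusted p = 0.248 and 0.267). In lung it measured 46.7 to 53 CPM in young mice and 59.8 to 73.1 with vehicle, also without a call (edgeR adjusted p = 0.205). Serpinb6a measured 228 to 339 CPM in young lung and 177 to 311 with vehicle, and 944 to 1265 CPM in young skin and 457 to 882 with vehicle, without a call.

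**Figure D5:**
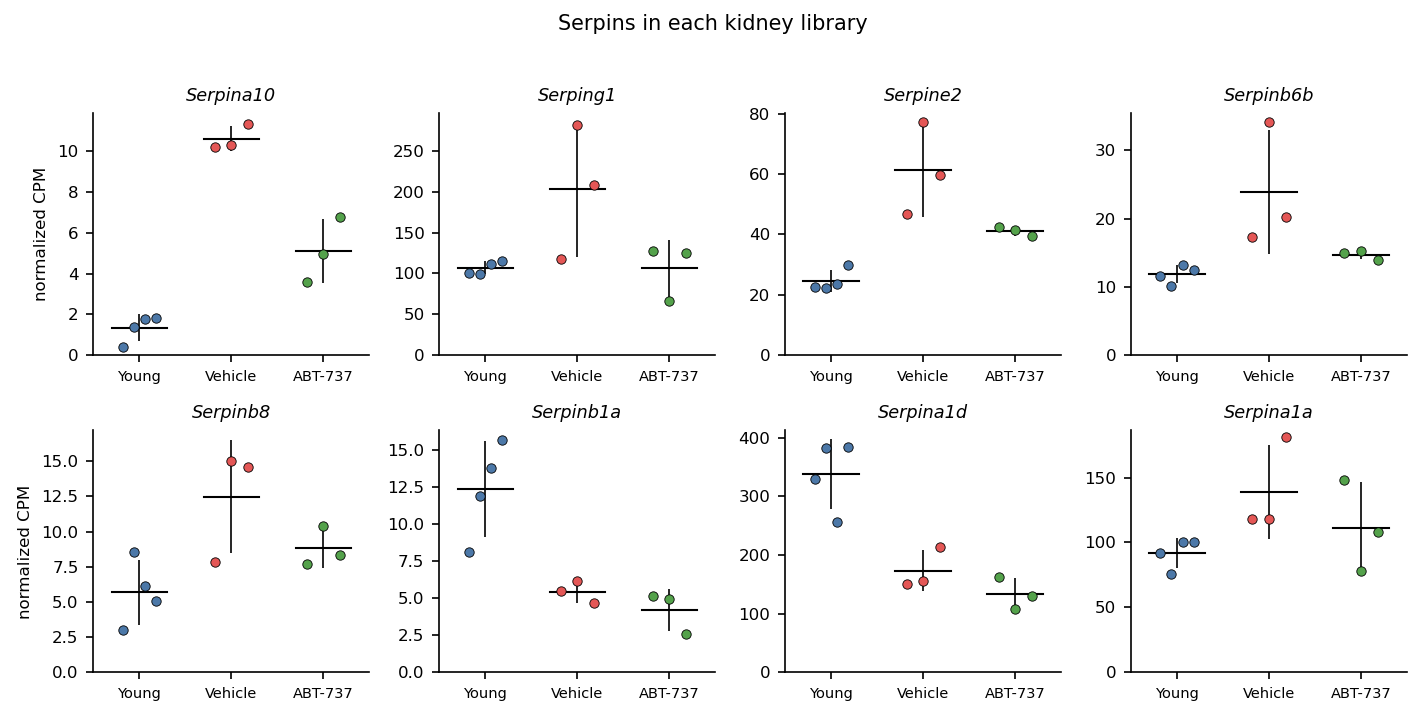
Levels of 8 serpins in kidney, in normalized CPM on linear axes that start at 0 and differ between panels. Points are libraries of young, vehicle-treated and ABT-737-treated mice, horizontal bars are means and vertical lines 1 SD to each side, cut at 0. Vehicle libraries lie above the young ones for Serpina10, Serping1, Serpine2, Serpinb6b and Serpina1a, below them for Serpinb1a and Serpina1d, and overlap them for Serpinb8.

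The clade B members of stratified epithelium varied between the vehicle-treated skins. Serpinb5, or maspin, measured 6.51, 5.18 and 8.19 CPM in young skin, 4.83, 54.1 and 39.7 CPM with vehicle and 9.6, 9.79 and 12.5 CPM with ABT-737. Vehicle replicate 3 lay below all young libraries and the other vehicle libraries above all else, without a call (log2 fold change 2.30, SE 0.69, edgeR adjusted p = 0.0595). Without vehicle replicate 3 the difference was 2.79 (edgeR adjusted p = 0.0153). Serpinb12, a member of the list of epidermal serpins, which does not hold Serpinb5, was high in 1 library, at 163 CPM in vehicle replicate 5 against 6.15 and 11.4 CPM in the other vehicle libraries, 2.88 to 4.09 CPM in young mice and 1.04 to 3.96 CPM with ABT-737. The listed epidermal clade B members had 3 tested and 0 called in skin.

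Whether the serpin responses differed between kidney, liver and lung was tested over 31 members with an interaction term. The labels do not say whether libraries of different tissues come from the same mouse, and the fit treats them as independent. Of the 31 members, 6 passed the filter in each of the 3 tissues and 12 had at most 3 counts in every library of at least 1 tissue, where a difference was hardly measurable at this depth. Serpina4-ps1, at 0 in each kidney and lung library, is among the latter. For ABT-737 against vehicle 0 members differed by tissue, beside 0.0992% of all genes. In that test 3 members, Serpinb6a and Serpine2 among them, had an unadjusted p under 0.05, beside 1556 of all 13107 genes. DESeq2 also called 0 members. For vehicle against young 5 members differed, beside 13.9% of all genes. They were Serpina10, Serpine2, Serpinb1a, Serpina9 and Serpinb6b (edgeR adjusted p = 0.0054, 0.00564, 0.00625, 0.0135 and 0.0444). Serpina9 had 0 counts in kidney and at most 6 in a liver library, Serpinb1a at most 2 in a liver library, and Serpina10 passed the filter of kidney and liver and Serpinb6b those of kidney and lung. The age difference of Serpina10 was lower in liver than in kidney by 2.07 (log2), while in lung it was 0.28 above kidney. That of Serpine2 was lower than in kidney by 0.67 in liver and by 1.87 in lung. The call of Serpina9 was lost without liver vehicle replicate 4 (0.055) and that of Serpinb6b without any of 21 of the 30 libraries (0.0508 to 0.141) and with the replicate block (0.0759).

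Proteases that serpins restrain were measured beside them, together with the C1q genes, which encode no protease. The counts of calls stand against the shares of all genes called with age. These were 7.75% higher and 5.50% lower (kidney), 11.7% and 10.8% (liver), 8.15% and 4.73% (lung), 5.84% and 5.35% (skin). After ABT-737, 1.21% (kidney) and 2.85% (liver) of all genes were lower. Of 5 tested C1 and C1q genes, all 5 were higher with age in kidney (median log2 fold change 2.12) and in skin (2.45), 3 in liver (1.96) and 4 in lung (2.31). After ABT-737, 3 were lower in kidney (median -1.42) and 3 in liver (median -2.12). C1qa was called in kidney at 2.53 and -1.42 (edgeR adjusted p = 0.00365 for the latter). Granule proteases of leukocytes and mast cells were higher with age for 1 of 2 tested genes in kidney and 2 of 3 in liver, and likewise 2 of 6 (lung) and 2 of 8 (skin), and lower after ABT-737 for 1 in kidney and 1 in liver. In lung Gzmb, encoding granzyme B, averaged 3.15 ± 1.6 CPM in young mice (SD, n = 4) and 91.3 ± 83.5 CPM with vehicle (SD, n = 3), with log2 fold change 4.82 (SE 0.88, edgeR adjusted p = 0.00443), and its drug difference was -2.58 (edgeR adjusted p = 0.163). Gzma in lung was not called with age at 1.65 (edgeR adjusted p = 0.0942), nor was Elane in skin at -0.73 (edgeR adjusted p = 0.0827).

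Of the coagulation and fibrinolysis proteases, 1 of 6 was higher with age in kidney, where the tissue plasminogen activator Plat changed by 0.75 (log2, SE 0.21, edgeR adjusted p = 0.0255). In liver 2 of 12 were lower, F11 at -1.48 and Klkb1 at -0.91 (edgeR adjusted p = 0.00147 and 0.0213), while prothrombin (F2) and plasminogen (Plg) were not called at -0.43 and 0.06 (edgeR adjusted p = 0.229 and 0.87). Urokinase (Plau) in kidney was not called at 0.23 (edgeR adjusted p = 0.701). None of 4 in lung and of 1 in skin was called, nor any after ABT-737 in the 4 tissues. The receptors and cofactors that clear or assist serpins had 3 higher and 1 lower of 9 in kidney. They were Lrp1 at 0.95, Thbd at 1.02 and Sdc1 at 0.79, and Lrp2 at -0.84, which alone rose after ABT-737, by 0.74 (edgeR adjusted p = 0.0439). In liver 1 of 6 was higher, Sdc1 at 1.27, in lung 2 of 10 were lower, Vtn at -2.69 and Sdc4 at -0.93, and in skin 1 of 9 was higher and 1 lower.

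Inhibitors of other families were called in each tissue. Of 15 tested in liver, 7 were higher and 1 lower with age, among them Cst3 at 1.11, Wfdc2 at 2.26 and Itih3 at 1.54. In kidney 3 of 13 were higher, Cst7 at 4.24, Slpi at 4.93 and Timp1 at 2.38, and 1 lower, and Cst7 fell by 3.76 on the log2 scale after ABT-737 (edgeR adjusted p = 0.00365). In lung 2 of 12 and in skin 2 of 10 were higher with age, Slpi in both. Collagens and collagen-processing enzymes, the clients and partners of Serpinh1, with age had 0 of 19 called in kidney and 1 of 6 higher in liver. In lung 5 of 20 were lower (median -0.84), where 4.73% of all genes were, and skin had 2 of 20 higher, where 5.84% of all genes were, and 0 called after ABT-737 in each tissue.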

How the data were processed

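RNA from kidney, liver, lung and skin was measured in 39 libraries of 3 groups. The authors deposited whole-number read counts per gene, not normalized, in 2 tables, with skin in a table of its own. The submitters' processing notes name HISAT 0.1.5, HOMER, bcl2fastq and mm10; use of strand in counting and collapsing of molecule barcodes are not given in the sources used here. Counts come from 3′ ends and were not scaled by length, and total counts per library set the precision. Levels were therefore not compared between genes, except as shares of the Serpina1 counts and to pick the highest members of each tissue. Libraries were grouped by title, age and treatment label.

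Within a tissue, the filter of edgeR (filterByExpr) removed low genes, and counts were scaled by TMM and fitted with the quasi-likelihood test over all 3 groups (R 4.3.3, edgeR 4.0.16, limma 3.58.1), and p-values were Benjamini-Hochberg adjusted over all genes with a threshold of 0.05. The SE is the absolute log2 fold change divided by the square root of F. Young tissues were scaled and fitted together, and tissue differences were tested as interaction terms. The code was tested on simulated data. Alternatives were DESeq2 1.42.0, size factors of DESeq2 with the edgeR test, a filter of only 1 count, only the compared groups, paralog counts summed (Serpina1, Serpina3 and like groups), the replicate number as a block, and each library left out with the filter applied again. Deviations of same-numbered ABT-737 and vehicle libraries correlated at 0.176 to 0.427 in lung, -0.21 to 0.0196 in kidney, -0.0442 to 0.16 in liver and -0.577 to 0.276 in skin. Values for differently numbered libraries are not given beside them, and the young libraries are not covered. The labels do not say what a shared number stands for, so whether it pairs libraries is not settled.

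The members and lists were chosen with earlier results of these data known. Named were members called in a comparison within a tissue, the 5 highest members of each tissue and a fixed set of well-studied members with over 3 counts. Levels are not given for each of them in every tissue where it was counted. Of each list, up to 3 called genes with the smallest adjusted p were named. The lists were written from general knowledge. The values of 1 member are not reported here, though it is in the counts over members.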

Additional observations from a re-analysis of the deposited data

Results flagged for a closer look

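Among the young groups of 4 libraries, 57 groups of member levels were examined for a library apart from the others by Dixon's criterion, which chance meets in about 1 of 20 groups, and 5 met it. Serpina3g in kidney was 9.23 CPM in young replicate 4 against 4.72 CPM in the nearest library. In liver, Serpina10 was 425 CPM in young replicate 2 against 322 CPM in the nearest, and Serpinf1 was 850 CPM in young replicate 1 against 1058 CPM. Young lung replicate 3 was the lowest for Serpinb1a, at 19 CPM against 29.4 CPM, and for Serpinb9, at 46.7 CPM against 52 CPM.

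The difference between vehicle-treated and young mice varied between kidney, liver and lung for 5 members by the edgeR interaction test. The adjusted p was 0.0054 for Serpina10, 0.00564 for Serpine2, 0.00625 for Serpinb1a, 0.0135 for Serpina9 and 0.0444 for Serpinb6b.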

How the results depend on the processing

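All 23 calls of members within tissues kept their direction under every alternative run, 11 of them were called without any single library and 9 under every alternative. Counts of called members that moved by over 1.5 times were as follows. DESeq2 gave 8 members with a tissue-dependent age difference instead of 5, 4 in liver under ABT-737 instead of 2, 1 in lung under ABT-737 instead of 0 and 4 in skin with age instead of 1. Without a filter beyond 1 count the counts under ABT-737 were 3 (kidney), 6 (liver), 1 (lung) and 1 (skin), instead of 1, 2, 0 and 0, and 6 in lung and 5 in skin with age instead of 3 and 1. Summing paralogs, which leaves fewer members to call, gave 5 (kidney), 4 (liver), 1 (lung) and 0 (skin) with age, 1 in liver under ABT-737, 14 between young kidney and lung instead of 24 and 16 between young liver and kidney instead of 27.

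With the replicate number as a block, 3 members were called in kidney and 3 in liver with age instead of 8 each, 1 in liver under ABT-737, where Serpina4-ps1 was at 3.79 (edgeR adjusted p = 0.0528), and 1 in lung under ABT-737. Of the 22 member calls refitted this way 12 were lost. In kidney with age these were Serpina1d, Serpinb1a, Serpinb6b, Serpinb8 and Serping1, and in liver Serpina1e, Serpina3c, Serpina3k, Serpina10 and Serping1. The others were Serpina4-ps1 in liver under ABT-737 and Serpina3n in lung with age. In kidney, liver and lung, young and old libraries share only the replicate numbers 3 and 4. With the block, the comparison of vehicle with young therefore rests mainly on libraries with those numbers. A block was not run for skin vehicle against young, which share 1 replicate number. Leaving out each library in turn gave 0 to 4 calls in kidney, 2 to 6 in liver, 0 to 2 in lung and 0 to 0 in skin under ABT-737, and 5 to 11, 3 to 10, 2 to 4 and 0 to 4 with age. The tissue-dependent age difference gave 3 to 6, and young tissues 23 to 24 between kidney and lung, 26 to 27 between liver and kidney and 27 to 29 between liver and lung. The calls of Serping1 (edgeR adjusted p = 0.0526) and Serpina10 in liver were lost with a filter of only 1 count. Those of Serpina1e in liver and Serpinb8 in kidney were lost with only the compared groups (edgeR adjusted p = 0.0602 and 0.053). The cause of these shifts was not tested. Liver libraries were the shallowest, and low members such as Serpina3f there and Serpina10 in lung lay near the count limit of the filter.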
